A study of Arabidopsis thaliana with 8 samples.

Results

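A group of 9 genes known from endosperm development was followed between a pair of Arabidopsis thaliana crosses: MEA, FIS2, FIE, FWA, MPC, PHE1, PHE2, AGL36 and AGL62. They were taken by locus name from the array annotation, and all 9 of 9 had a probe, 1 each, among 24648 loci on the array. RNA from isolated embryos of the cross with M0191 as female and bdl as male (the bdl cross) was hybridised on each 2-colour array beside RNA from embryos of M0171 as female and Col-0 as male (the Col-0 cross). There were 4 biological replicate arrays at 3 d and 4 at 6 d after pollination, and by the labels the bdl cross carried Cy5 on the first pair of replicates and Cy3 on the last pair. Both crosses are labelled with the ecotype Col-0, and bdl is the name of bodenlos, a line with a stabilised form of the auxin response repressor IAA12. The labels say no more about M0191 and M0171, and both parents differ between the crosses, so a maternal and a paternal source of a difference cannot be told apart.

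In flowering plants the endosperm is the nourishing tissue beside the embryo, and many genes there are imprinted, that is, expressed mainly from the maternal or the paternal copy. Polycomb Repressive Complex PRC2 methylates histone H3 and keeps target genes silent. Its seed form, the FIS complex, counts among its subunits MEA as the methyltransferase, FIS2 as a zinc-finger protein and FIE as a WD-repeat protein. The complex restrains endosperm growth and type I MADS-box genes. The DNA glycosylase DME removes methylation in the central cell and so opens the maternal copies of MEA, FIS2 and FWA.

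The 3 d arrays gave an intensity for each cross and the 6 d arrays a log2 ratio, on which 1 means 2-fold higher in the bdl cross. With ratios alone at 6 d, a change in the level of either cross between stages cannot be read. A gene said to rise or fall at a stage was higher or lower in the bdl cross than in the Col-0 cross. Between 22327 and 25322 gene spots held a ratio on each 3 d array, and between 23517 and 26342 rows did on each 6 d array. IAA12 had a log2 ratio of 3.40 ± 0.07 at 3 d (10.6-fold, limma adjusted p = 0.0225) and 0.31 ± 0.06 at 6 d (1.24-fold, adjusted p = 0.0282). Unless marked SD, ± is the standard error of the limma fit. That error allows for dye and is moderated by the spread of all genes, so it can differ from the plain error over arrays. Blank spots on the 3 d arrays did not follow the labelled dyes: their median log2 ratio was 1.28 and 0.79 on replicates 1 and 4 and -1.18 and -1.32 on replicates 2 and 3. With dyes assigned in that pairing 4859 genes were called at 3 d in place of 2516. The sign at 6 d rests on the 3 d columns of the same deposited table, whose sign was checked against intensities; the 6 d columns were not. Between arrays of a stage the log2 ratios correlated over genes at 0.280 to 0.493 at 3 d and 0.636 to 0.737 at 6 d. Between the stages r was 0.334 over 18250 genes, which are not independent replicates. Precision is limited by how few arrays there are. The limma p-values rest on the spread between these replicates, moderated by that of all genes.

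At 3 d AGL36 and MPC were the members that differed between the crosses, both higher in the bdl cross, by 2.63-fold and 2.19-fold. At 6 d PHE1, FWA, AGL62 and PHE2 were higher by 4.26-fold, 3.72-fold, 3.03-fold and 2.62-fold, and FIE was 2.37-fold lower. Of 8 members tested at 3 d, 2 were called higher and 0 lower at a limma adjusted p under 0.05, a share of 25%, beside 13.1% of all genes called in either direction, 7.00% called higher and 6.08% called lower. At 6 d 4 of 8 were higher and 1 lower, or 62.5%, beside 53.4% of all genes in either direction, 26.7% higher and 26.7% lower. The share called at 6 d was thus near that of all genes. The median log2 ratio of the members was 0.14 at 3 d and 1.48 at 6 d, against -0.005 and -0.016 over all genes. The sets of 8 differ, as AGL36 was tested at 3 d alone and FIS2 at 6 d alone. A filter on dim probes was applied at 3 d and not at 6 d. A ratio from whole embryos cannot tell fewer cells of a type from less RNA per cell.

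The labels name embryo tissue, and markers of the tissues around it were detected too. At 3 d 6 of 7 endosperm markers lay above blank spots on at least 2 arrays, and none was below them on all arrays; their summed intensity was 3180 to 14270 in the bdl cross and 1927 to 8377 in the Col-0 cross, higher in the bdl cross on 4 of 4 arrays. For seed coat markers 14 of 15 lay above blank spots, with sums of 154177 to 221316 against 96904 to 148082, again higher on 4 of 4 arrays. Of 11 embryo markers 10 had a probe, and these 10 lay above blank spots, with sums of 41423 to 78232 in the bdl cross and 55483 to 94904 in the Col-0 cross, and the bdl cross was lower on each array. By gene most embryo markers were higher in the bdl cross, unlike this sum, with 7 of 10 above 0, 6 called higher, 3 called lower and a median log2 ratio of 0.72. The part of endosperm or seed coat RNA in the values of the members was not tested.

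**Figure D1:**
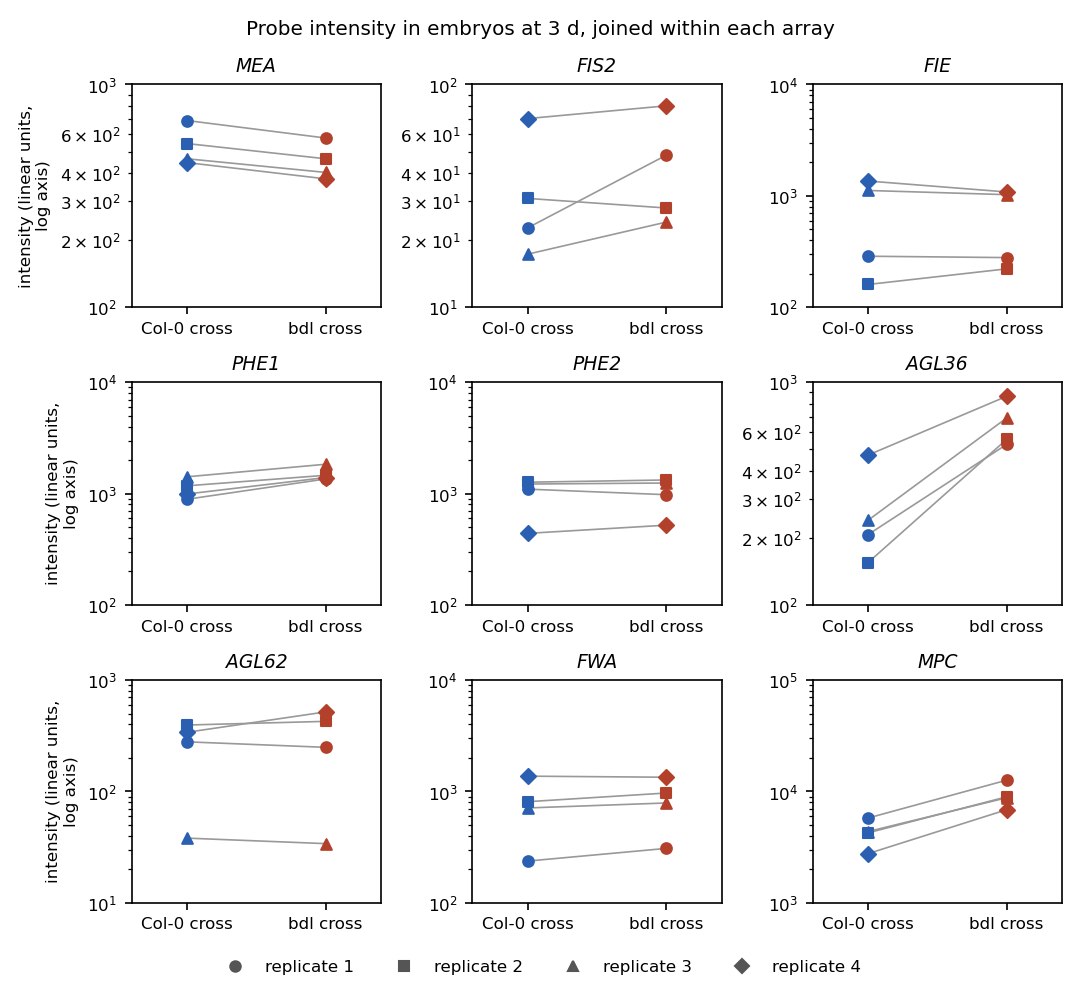
Probe intensity at 3 d on a log axis for each of the 9 genes, with the Col-0 cross (blue) and the bdl cross (red) of each array joined by a line. All lines climb for AGL36, MPC and PHE1 and descend for MEA; the axes differ between genes, and levels of different probes cannot be compared.

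Of the FIS complex subunits among the members, FIE was lower in the bdl cross at 6 d and MEA passed the test at neither stage. FIS2, which was not tested at 3 d, did not pass at 6 d. MEA (AT1G02580), the methyltransferase, gave intensities of 575, 464, 403 and 377 in the bdl cross and 689, 543, 464 and 446 in the Col-0 cross on 3 d replicates 1 to 4. The bdl cross was the lower channel on every one of these arrays, although intensities of the crosses overlapped between arrays. The log2 ratios of MEA were -0.26, -0.23, -0.21 and -0.24, with a mean of -0.23 ± 0.06 (95% interval -0.41 to -0.06) that did not pass (limma adjusted p = 0.0922). It did pass without the dye term, and in a stricter filter that asked for signal over blanks in each channel of each array (adjusted p = 0.0332 in each). Over the 12 alternatives run the adjusted p was 0.0332 to 0.267, and these 2 passed.

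At 6 d the log2 ratios of MEA were 1.43, 3.46, 0.78 and 0.62 on replicates 1 to 4. All 4 arrays were above 0, but they spread over more than 2 log2 units, with replicate 2 the highest. Replicates 1 and 2, where the bdl cross carried Cy5 by the labels, both read above replicates 3 and 4. The main fit takes up a difference between these pairs in its dye term. The mean of 1.57 ± 0.41 missed the threshold narrowly (limma adjusted p = 0.0524). Without replicate 1 it was 2.08 (adjusted p = 0.0223), without replicate 2 it was 1.07 (adjusted p = 0.0286), and over probes that passed the 3 d signal filter it was 1.57 (adjusted p = 0.0466), each past the threshold. It did not pass in the other 6 of 9 alternatives: without replicate 3 (1.53, adjusted p = 0.152) or 4 (1.62, 0.135), without the dye term (0.0739), with dyes assigned as the blanks paired the arrays (0.1), with probes averaged (0.0529) or with arrays centred (0.0502).

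FIE (AT3G20740), the WD-repeat subunit that PRC2 forms outside the seed share, had intensities of 279, 221, 1025 and 1084 in the bdl cross and 287, 160, 1118 and 1359 in the Col-0 cross at 3 d. Replicates 3 and 4 were several times brighter than 1 and 2 in both channels, and the ratio scattered around 0. The log2 ratios were -0.04, 0.47, -0.13 and -0.33, with a mean of -0.01 ± 0.12 and a 95% interval of -0.38 to 0.37 (limma adjusted p = 0.981). At 6 d FIE was lower in the bdl cross than in the Col-0 cross, with log2 ratios of -1.26, -1.19, -1.19 and -1.34. These arrays lay within 0.2 log2 units of each other and all below 0, with a mean of -1.24 ± 0.07 (limma adjusted p = 0.00295), lower than 92.2% of all genes tested. FIE kept its call with any 1 array left out (-1.28 to -1.21).

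FIS2 (AT2G35670), the zinc-finger subunit, was near the limit of detection at 3 d. Its intensities were 48.1, 27.9, 24.1 and 80.2 in the bdl cross, above the 95th percentile of blank spots on 0 of 4 arrays, and 22.7, 30.8, 17.3 and 70.3 in the Col-0 cross, above it on replicate 4. FIS2 was therefore not tested at 3 d. At 6 d its log2 ratios were -0.21, 1.64, -0.59 and 0.34, on both sides of 0, with a mean of 0.29 ± 0.42 (limma adjusted p = 0.599) that read -0.17 without replicate 2.

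The type I MADS-box members PHE1, PHE2 and AGL62 shared a pattern of small or no measured difference at 3 d and a called one at 6 d. The ratios of all genes also spread more widely at 6 d. Their 10th and 90th percentiles were -1.12 and 1.58, against -0.58 and 0.64 at 3 d. PHE1 (AT1G65330), a paternally expressed target of the FIS complex, had intensities of 1355, 1462, 1837 and 1395 in the bdl cross and 891, 1176, 1417 and 993 in the Col-0 cross at 3 d. Its log2 ratios of 0.61, 0.31, 0.37 and 0.49 were above 0 on all 4 arrays, and the mean of 0.45 ± 0.08 did not pass (limma adjusted p = 0.0614). It passed without the dye term (adjusted p = 0.0194), with dyes assigned as the blanks paired the arrays (0.0252), under the stricter signal filter (0.0161) and where the prior spread could depend on brightness (0.00583). It did not pass in the other 8 of 12 alternatives (up to 0.187). At 6 d the log2 ratios of PHE1 were 2.13, 2.13, 2.43 and 1.68. No 6 d array overlapped the 3 d ones, and the mean of 2.09 ± 0.16 (limma adjusted p = 0.00453) was the highest of the members tested at 6 d, exceeded by 5.76% of all genes.

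PHE2 (AT1G65300), also called AGL38, is the close relative of PHE1 and lies near it, with 2 protein-coding genes, XTH17 and CBSX6, between them in the RefSeq TAIR10.1 annotation. It had intensities of 979, 1327, 1246 and 521 in the bdl cross and 1098, 1267, 1220 and 440 in the Col-0 cross at 3 d. The log2 ratios of -0.17, 0.07, 0.03 and 0.24 straddled 0, with a mean of 0.04 ± 0.08 and a 95% interval of -0.22 to 0.30 (limma adjusted p = 0.744). At 6 d PHE2 was higher in the bdl cross, with log2 ratios of 1.60, 1.41, 1.27 and 1.27. These values lay within 0.4 log2 units of each other. Their mean was 1.39 ± 0.07 (limma adjusted p = 0.00279), exceeded by 12.4% of all genes.

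Because probe sequences were not used here, signal from PHE1 reaching the PHE2 probe, or the reverse, was not tested. The log2 ratio of PHE1 exceeded that of PHE2 by 0.77, 0.25, 0.34 and 0.25 on the 3 d arrays and by 0.53, 0.72, 1.16 and 0.41 on the 6 d arrays. The difference had the same sign on 8 of 8 arrays, with a mean of 0.55 ± 0.31 (SD, n = 8; exact sign-flip permutation test, two-sided p = 0.00781, the smallest it can give). The probes therefore did not report the same ratio. Within a stage the 4 arrays cannot reach a p below 0.125.

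AGL62 (AT5G60440), which holds back endosperm cell wall formation, was dim on 1 array at 3 d. Its intensities were 249, 426, 34 and 518 in the bdl cross and 279, 395, 38.1 and 340 in the Col-0 cross, and replicate 3 lay above blank spots in the bdl cross channel alone. The log2 ratios of -0.16, 0.11, -0.16 and 0.61 went both ways, with a mean of 0.10 ± 0.17 and a 95% interval of -0.43 to 0.62 (limma adjusted p = 0.715). At 6 d AGL62 was higher in the bdl cross, with log2 ratios of 1.51, 1.02, 1.59 and 2.27, all above every 3 d ratio. The mean was 1.60 ± 0.18 (limma adjusted p = 0.0085), exceeded by 9.86% of all genes.

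AGL36 (AT5G26650), a maternally expressed member of the same family, differed between the crosses at 3 d. Whether its difference changed by 6 d was not tested. Its intensities at 3 d were 526, 554, 691 and 865 in the bdl cross and 207, 155, 240 and 471 in the Col-0 cross. The bdl cross was the higher channel on each array, and its lowest value lay above the highest of the Col-0 cross. The share of all genes with such a separation is not given here. The log2 ratios were 1.34, 1.83, 1.52 and 0.88, with a mean of 1.39 ± 0.17 (limma adjusted p = 0.039), exceeded by 2.32% of all genes. At 6 d the table held a value for AGL36 on replicate 4 alone, 0.06, and no test was made.

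**Figure D2:**
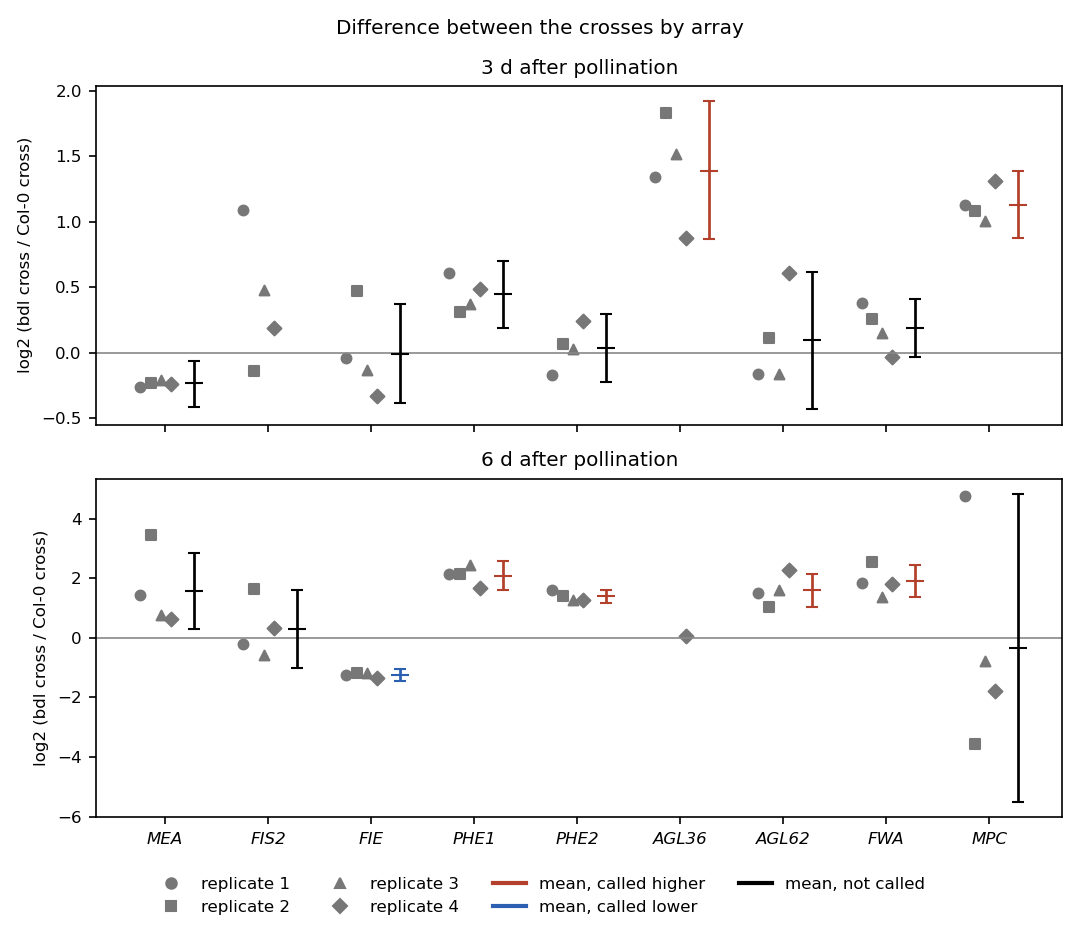
Log2 ratio (bdl cross against Col-0 cross) on each array (grey symbols, 1 per replicate) at 3 d and 6 d, with the mean and its 95% interval from the limma fit (red higher, blue lower, black not called). The means of PHE1, PHE2, AGL62 and FWA lie between 1.39 and 2.09 at 6 d, FIE lies at -1.24, and the 4 values of MPC at 6 d run from -3.55 to 4.75; the vertical scales of the panels differ.

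FWA and MPC are maternally expressed genes outside the complex and the MADS-box family. FWA (AT4G25530), a homeodomain factor whose expression outside the seed delays flowering, had intensities of 308, 968, 788 and 1342 in the bdl cross and 237, 809, 711 and 1372 in the Col-0 cross at 3 d. Its log2 ratios were 0.38, 0.26, 0.15 and -0.03, with a mean of 0.19 ± 0.07 (limma adjusted p = 0.174). At 6 d FWA was higher in the bdl cross, with log2 ratios of 1.85, 2.54, 1.38 and 1.81, each above all 3 d ratios. The mean was 1.89 ± 0.17 (limma adjusted p = 0.00599). With 1 array left out the mean was 1.72 to 2.07 and FWA remained called.

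MPC (AT3G19350), which resembles the C-terminal domain of poly(A)-binding proteins, had intensities of 12621, 8948, 8777 and 6853 in the bdl cross and 5770, 4247, 4362 and 2764 in the Col-0 cross at 3 d. Each bdl cross value exceeded every Col-0 cross value, a separation whose share over all genes is not given here. The log2 ratios of 1.13, 1.08, 1.01 and 1.31 were close to each other. The mean was 1.13 ± 0.08 (limma adjusted p = 0.0293), exceeded by 3.56% of all genes. At 6 d the arrays disagreed, with log2 ratios of 4.75, -3.55, -0.77 and -1.79 on replicates 1 to 4. Replicate 1 was far above 0 and the other 3 below it, so the mean of -0.34 ± 1.67 has no settled sign (95% interval -5.51 to 4.82, limma adjusted p = 0.88). Without replicate 1 the mean was -2.42 (adjusted p = 0.0325), and without replicate 2 it was 1.73 (adjusted p = 0.0542).

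The calls of AGL36 and MPC at 3 d depended on having all 4 arrays. With 1 array left out AGL36 read 1.23 to 1.56 (limma adjusted p = 0.118 to 0.154) and MPC 1.06 to 1.21 (adjusted p = 0.113 to 0.154). Those fits left a residual degree of freedom of 1, and limma called 0 of all genes in them, with 4610 to 5356 genes at an unadjusted p under 0.05. Fits at 6 d with 1 array left out also had 1, and 7152 to 8415 genes were called in them. Each 3 d call of other genes given below likewise ended with any 1 array left out.

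In the order of mean log2 ratios at 3 d AGL36 stood first, followed by MPC, PHE1, FWA, AGL62, PHE2, FIE and MEA. Neighbours whose per-array difference exceeded its SD were MPC and PHE1, 0.68 ± 0.13 (SD, n = 4; exact sign-flip p = 0.125, the smallest possible), and PHE1 and FWA, 0.26 ± 0.19 (SD, n = 4; exact p = 0.125). At 6 d the order was PHE1, FWA, AGL62, MEA, PHE2, FIS2, MPC and FIE. Among the first 5, each neighbour differed from the next by 0.02 to 0.30, less than the SD of the difference (0.64 to 1.76), so their order is not settled.

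The change between stages was tested directly, as the log2 ratio at 6 d minus that at 3 d, in 1 fit of 8 arrays. Of 8 members with values, 5 had a higher ratio at 6 d and 1 a lower one, or 75%, beside 44.6% of all genes called, 23.9% higher and 20.7% lower. The difference was 1.70 ± 0.19 for FWA (limma adjusted p = 0.000672), 1.65 ± 0.18 for PHE1 (0.000529), 1.50 ± 0.26 for AGL62 (0.00385) and 1.34 ± 0.13 for PHE2 (0.000338). FIE went down by -1.24 ± 0.15 (adjusted p = 0.000989). These 5 were called with each replicate number left out in turn. MEA gave 1.81 ± 0.54 (adjusted p = 0.0355) and lost its call without replicate 1 (1.85, adjusted p = 0.0794), replicate 3 (2.08, adjusted p = 0.0761) or replicate 4 (2.12, adjusted p = 0.0664). MPC did not pass, at -1.47 ± 1.72 (adjusted p = 0.534), though without replicate 1 it read -3.17 (adjusted p = 0.0154). FIS2 gave -0.11 ± 0.51 (adjusted p = 0.882) on 3 d values mostly within the range of blank spots.

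**Figure D3:**
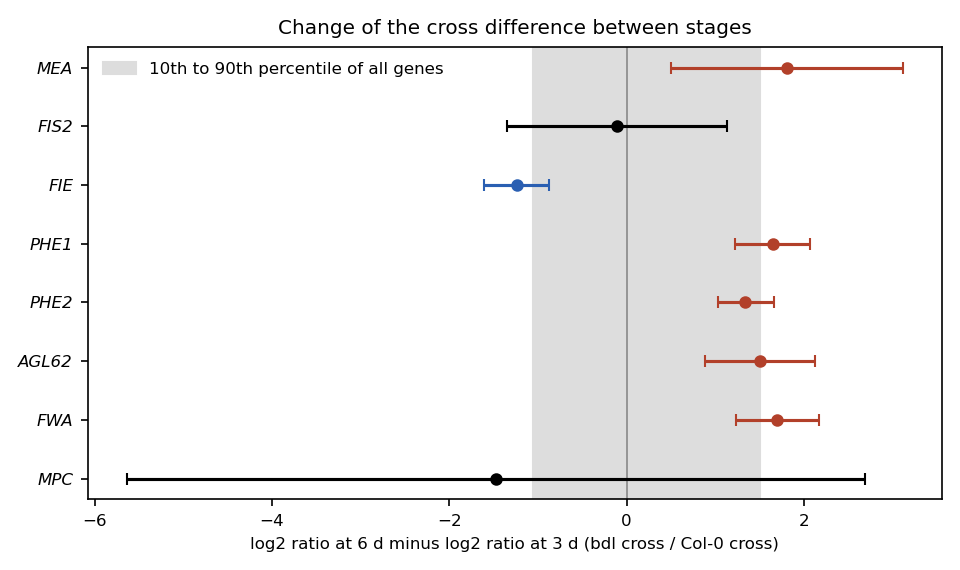
Log2 ratio at 6 d minus that at 3 d for the 8 members with values at both stages, with 95% intervals from the limma fit (red higher, blue lower, black not called). The grey band runs from -1.06 to 1.50, the 10th and 90th percentiles of all genes. FWA, PHE1 and MEA lie to its right and FIE to its left, and AGL62 lies at its right edge. PHE2 and FIS2 lie within it, and MPC lies left of it with an interval that crosses 0.

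The genes whose 8 log2 ratios lay nearest to a member's, by Euclidean distance among 15532 others with values on every array, are given as a description. For PHE1 they were LST8-2 (0.22) and AT5G08050 (0.45), and for PHE2 AT1G05070 (0.32) and AT2G24765 (0.36). For FIE they were TCP10 (0.31) and AT3G13670 (0.48). FWA had AT5G59140 (0.64) and AT3G60480 (0.68), AGL62 had AT2G28590 (0.67) and AT4G30390 (0.74), and MEA had AT2G45710 (0.83) and AT1G26920 (1.16). The nearest genes to MPC lay as far as 3.88 (AT5G24480) and 4.06 (AT1G68140).

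The counts for related genes that follow are to be read beside the shares of all genes called, 13.1% at 3 d and 53.4% at 6 d. Other Polycomb genes differed between the crosses in both directions. Of 6 tested (CLF, SWN, EMF2, VRN2, MSI1 and the reader protein LHP1), 1 rose and 1 fell at 3 d, and 1 rose and 2 fell at 6 d, with medians of -0.02 and -0.26. CLF and SWN are methyltransferases related to MEA. SWN rose by 0.70 ± 0.11 at 3 d (limma adjusted p = 0.0496; Col-0 cross above blank spots on 3 of 4 arrays) and 1.17 ± 0.13 at 6 d (0.00814). CLF fell, at -0.55 ± 0.08 (adjusted p = 0.0488) and -0.59 ± 0.08 (0.0147). VRN2, related to FIS2, fell at 6 d (-0.57 ± 0.10, adjusted p = 0.0201). MSI1 was called at neither stage, at -0.11 ± 0.06 (adjusted p = 0.273) at 3 d and -0.15 ± 0.06 (0.138) at 6 d. The 3 d calls of SWN and CLF ended when dim probes were kept (adjusted p = 0.0587 and 0.0581) and when probes were averaged (0.0522 and 0.0517). At 6 d CLF lost its call without replicate 1 (-0.53), 2 (-0.64) or 4 (-0.53). VRN2 lost it without replicate 2 (-0.48), 3 (-0.60) or 4 (-0.54) and when its probes were averaged (-0.35, adjusted p = 0.194). None of the 6 was called between stages by limma (1 at an unadjusted p under 0.05, SWN at 0.47 ± 0.16), though SWN was without the dye term (adjusted p = 0.0397).

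Among DNA methylation and demethylation genes, 0 rose and 1 fell of 5 tested at 3 d, and 1 rose and 3 fell of 6 at 6 d. DME, the glycosylase that opens maternal copies, read 0.40 ± 0.14 at 3 d (limma adjusted p = 0.158) and rose at 6 d by 1.23 ± 0.08 (adjusted p = 0.00379). The chromatin remodeller gene DDM1 fell at 6 d (-1.55 ± 0.15, adjusted p = 0.00624). The DNA methyltransferase gene CMT3 fell at both stages, by -0.57 ± 0.06 (adjusted p = 0.0336) and -0.70 ± 0.10 (0.0138), and at 6 d not without replicate 3 (-0.67, adjusted p = 0.0607) or 4 (-0.73, 0.0502). The maintenance methyltransferase gene MET1 fell at 6 d (-0.36 ± 0.07, adjusted p = 0.0271) but not with any 1 array left out (-0.41 to -0.31, adjusted p = 0.0683 to 0.0938).

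Of the other type I MADS-box genes, 2 rose and 1 fell of 14 tested at 3 d (median -0.12), and 4 rose and 0 fell of 10 at 6 d (median 0.86). AGL80, a factor of the central cell, rose at both stages, by 0.93 ± 0.07 (limma adjusted p = 0.0303) and 1.41 ± 0.06 (0.00264). AGL28 rose at 3 d (0.64 ± 0.06, adjusted p = 0.0324). AGL91 read -0.09 ± 0.25 at 3 d (adjusted p = 0.825) and rose at 6 d by 3.24 ± 0.29 (0.0057). AGL86 rose at 6 d (1.01 ± 0.08, adjusted p = 0.00448).

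AGL90, a close relative of AGL36, went the other way from it at 3 d. It fell (-0.49 ± 0.06, limma adjusted p = 0.0386) while AGL36 stood at 1.39. At 6 d AGL90 rose (1.10 ± 0.19, adjusted p = 0.0218), but not without replicate 1 (1.01, adjusted p = 0.0824) or 2 (1.19, 0.0708). AGL35, separated from AGL36 by 1 protein-coding gene, AT5G26640, read 0.07 ± 0.10 at 3 d (adjusted p = 0.645).

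At each stage the imprinted genes outside the members that passed the test were higher in the bdl cross. At 6 d 60% of the maternally and 57.1% of the paternally expressed genes were called, near the 53.4% of all genes. Of 5 maternally expressed genes 1 rose and 0 fell at 3 d (median 0.25), and 3 rose and 0 fell at 6 d (median 0.90). The formin gene FH5 rose at 3 d (0.44 ± 0.06, limma adjusted p = 0.0445), though not when dim probes were kept (0.0538). SDC, an F-box gene silenced by DNA methylation in leaves, read 0.00 ± 0.14 at 3 d (adjusted p = 0.998) and rose at 6 d (1.75 ± 0.23, 0.0122); without replicate 3 it read 1.61 (0.0513). The homeodomain genes HDG8 and HDG9 rose at 6 d, by 0.90 ± 0.10 (adjusted p = 0.008) and 0.73 ± 0.08 (0.00868).

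Of the paternally expressed genes, 2 rose and 0 fell of 6 tested at 3 d (median 0.57), and 4 rose and 0 fell of 7 at 6 d (median 1.66). The homeodomain gene HDG3 rose at both stages, by 0.70 ± 0.07 (limma adjusted p = 0.0343) and 1.66 ± 0.07 (0.0026). The auxin synthesis gene YUC10 rose by 1.75 ± 0.22 at 3 d (adjusted p = 0.0408) and by 3.13 ± 0.14 at 6 d (0.00261). NRPD1, a subunit gene of RNA polymerase IV, read 0.32 ± 0.11 at 3 d (adjusted p = 0.152, and 0.0322 with dyes assigned as the blanks paired the arrays) and rose at 6 d by 1.96 ± 0.08 (0.00258). ADM, linked to failure of interploidy seeds, read 2.43 ± 0.50 at 3 d (adjusted p = 0.0702) and rose at 6 d by 2.02 ± 0.12 (n = 3, 0.00922). For YUC10 and ADM the Col-0 cross was above blank spots on 2 of 4 arrays at 3 d, so the sizes of their 3 d ratios rest partly on signal in the range of blank spots. The median at 6 d stood at 1.66 for these genes and at 1.48 for the members.

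**Figure D4:**
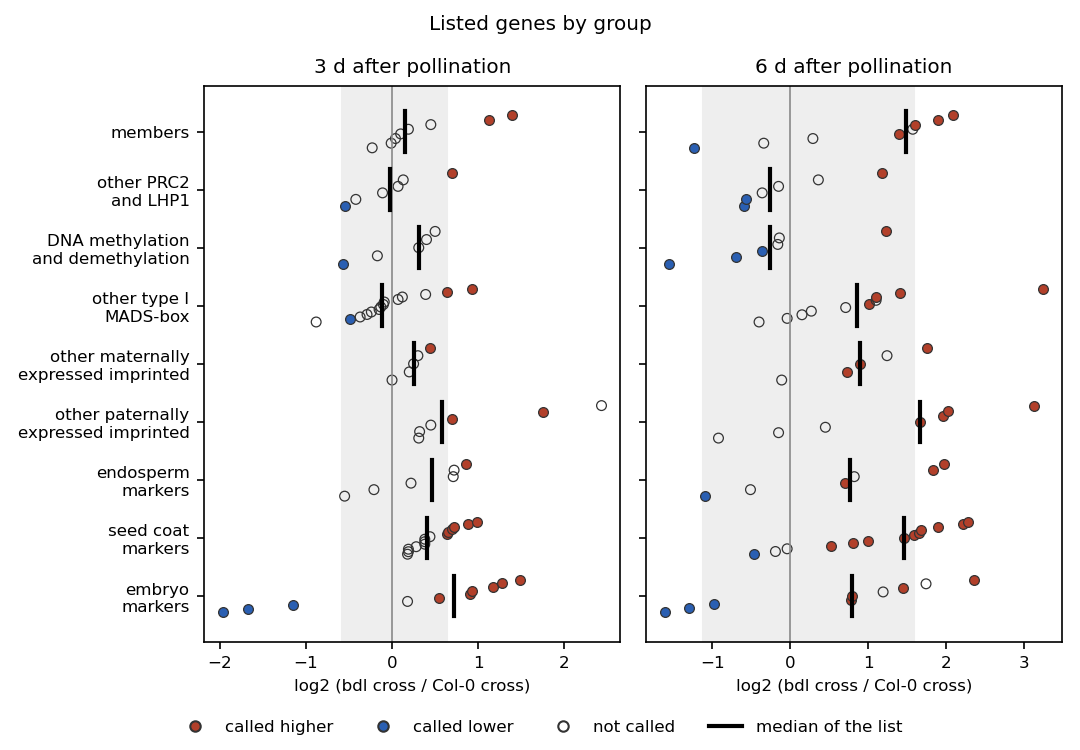
Log2 ratio of each tested gene by group at 3 d and 6 d (red called higher, blue called lower, open not called), with the median of each group as a black bar. The grey band runs from the 10th to the 90th percentile of all genes, -0.58 to 0.64 at 3 d and -1.12 to 1.58 at 6 d; at 6 d the medians of the members, the paternally expressed genes and the seed coat markers are 1.48, 1.66 and 1.46.

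Markers of tissues around the embryo were also counted by gene. Endosperm markers gave 1 rise and 0 falls of 6 at 3 d (median 0.47) and 3 rises and 1 fall of 6 at 6 d (median 0.76). The transporter gene SUC5 rose by 0.86 ± 0.06 at 3 d (limma adjusted p = 0.0293). ZOU and ALE1, which act in endosperm breakdown and embryo surface formation, rose by 1.97 ± 0.09 (0.00273) and 1.83 ± 0.06 (0.00257) at 6 d. IKU1 fell at 6 d (-1.09 ± 0.17, adjusted p = 0.0165). Seed coat markers gave 6 rises and 0 falls of 14 at 3 d (median 0.41) and 10 rises and 1 fall of 13 at 6 d (median 1.46). Among the rises, the flavonoid genes TT4 and TT1 led at 3 d (0.88 ± 0.08, adjusted p = 0.0324, and 0.99 ± 0.07, 0.0293). DFR and TT10 led at 6 d (2.28 ± 0.07, 0.00257, and 2.22 ± 0.11, 0.00279). The fall at 6 d was that of TT8 (-0.46 ± 0.09, adjusted p = 0.0271). Embryo markers gave 6 rises and 3 falls of 10 at 3 d (median 0.72) and 4 rises and 3 falls of 9 at 6 d (median 0.79). The homeobox gene WOX2 (1.49 ± 0.16, adjusted p = 0.034) and L1L, related to LEC1 (1.27 ± 0.15, 0.0386), rose at 3 d. The called embryo markers of largest size were DRN at -1.96 ± 0.07 (adjusted p = 0.0225) and then 2.35 ± 0.23 (0.00689), and PLT2 at -1.67 ± 0.21 (0.0394) and -1.61 ± 0.19 (0.00991). At 3 d the bdl cross was above blank spots for PLT2 on 2 of 4 arrays, so the size of that ratio rests partly on signal in their range.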

How the data were processed

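Embryo RNA was amplified as antisense RNA and coupled to dyes, per the labels' protocols; the sources used here name no scanner, background correction or normalization. The deposited 3 d files hold 1 linear intensity per spot and cross, whose channels are balanced (median log2 ratios -0.014 to 0.004); they were taken as already background-corrected, which was not tested. The deposited table of log2 ratios covers all 8 arrays. Of its 28399 entries, 24661 had 2 or more 3 d values; each equalled the ratio of 1 spot within 1e-06, with the bdl cross as numerator, and 0 matched with the sign turned; the 6 d columns were named through these entries. Columns of no known sample numbered 0. Names came from RefSeq TAIR10.1 (24467 of 24648 loci).

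A probe was kept at 3 d where either channel passed its own 95th percentile of 1743 blank spots on 2 or more arrays. The brightest probe stood for a gene. Genes with values on at least 3 arrays and both dyes were tested (19232 at 3 d, 19972 at 6 d) with limma 3.58.1 in R 4.3.3, a dye term and Benjamini-Hochberg adjustment over all genes, called at 0.05. The script was tested on simulated data. The named genes are all members and, per list, up to 4 called genes of largest ratio per stage. Some lists had fewer, and for marker lists not all are named. AGL35, ROS1, DRM2, TT8 and MSI1 were named after their values were seen. Members and lists were chosen with earlier results of these data known. Alternatives covered the dye term, signal filter, probe choice, normalization, source table, prior spread and each array left out. Figures were drawn in matplotlib 3.10.9 under Python 3.11.15.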

Additional observations from a re-analysis of the deposited data

Results flagged for a closer look

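For the genes below the log2 ratio changed between 3 d and 6 d in the limma test of that difference, given as 6 d minus 3 d. Among the members it was 1.81 for MEA, 1.70 for FWA, 1.65 for PHE1, 1.50 for AGL62, 1.34 for PHE2 and -1.24 for FIE. Among other type I MADS-box genes it was 3.33 for AGL91, 1.59 for AGL90, 1.25 for AGL86 and 0.48 for AGL80. Among other imprinted genes it was 1.75 for SDC, 1.64 for NRPD1, 1.37 for YUC10, 0.97 for HDG3, 0.60 for HDG8, 0.54 for HDG9 and -0.56 for FH5. Among DNA methylation and demethylation genes 1 of 5 went up, DME at 0.83, and 2 went down, ROS1 at -0.64 and DRM2 at -0.47 (median -0.19). Among markers of other tissues it was 1.84 for TT10, 1.63 for DFR, 1.11 for ALE1 and 0.76 for TT4, and the embryo marker DRN gave 4.31. Markers also went down between the stages, with ATML1 (embryo) at -1.48, F3H (seed coat) at -0.88 and IKU1 (endosperm) at -0.88. Some called seed coat markers are not named here. Of 13 seed coat markers 9 went up and 1 down, of 5 endosperm markers 1 and 1, and of 9 embryo markers 1 and 1. Over all genes 44.6% were called, 23.9% up and 20.7% down. The medians were -0.15 for endosperm, 0.76 for seed coat and 0.17 for embryo markers. With 1 replicate number left out, the call ended for HDG9 in every case (0.44, 0.51, 0.63 and 0.58 without replicate 1, 2, 3 and 4), for AGL80 without replicate 3 (0.37) or 4 (0.42), for ALE1 without replicate 1 (1.01) or 2 (1.07), and for MEA without replicate 1 (1.85), 3 (2.08) or 4 (2.12). No array stood apart by Dixon's criterion in 70 groups of 4 ratios. With 4 ratios only an extreme gap can pass it. MPC at 6 d was not flagged, though its mean ran from -2.42 to 1.73 with 1 array left out. The criterion thus cannot show that no single array drives a result.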

How the results depend on the processing

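At 3 d the count of members called was 2, and 4 without the dye term and 4 under a filter asking for signal over blanks in each channel of each array; without replicate 1, 2, 3 or 4 it was 0 (lowest 0, highest 0; 2 to 3 members at an unadjusted p under 0.05). The count over all genes was 2516, and 5070 without the dye term and 4859 with dyes assigned as the blanks paired the arrays. It was 5371 under the stricter filter, 5718 where the prior spread could depend on brightness and 0 with any array left out. Leaving out 1 array leaves 1 residual degree of freedom at 6 d too, where 7152 to 8415 genes were called. The cause of these differences was not tested. Members' counts at 6 d (5 to 7) and between stages (5 to 6) stayed within 1.5 times of 5 and 6 under every alternative run. Means with no call changed sign when 1 array was left out. At 3 d FIE read -0.13 to 0.12, PHE2 -0.01 to 0.10, AGL62 -0.09 to 0.29, AGL91 -0.32 to 0.15 and SDC -0.13 to 0.13. At 6 d FIS2 read -0.17 to 0.76 and MPC -2.42 to 1.73. Between stages FIS2 read -0.74 to 0.29, CLF -0.11 to 0.05, VRN2 -0.37 to 0.04, AGL28 -0.32 to 1.34 and PLT2 -0.11 to 0.31. VRN2 at 3 d was 0.09 in the mean over its probes. Of 222 recomputed values of members, 190 kept direction and side of the threshold. Replicate numbers showed no pairing of the stages. Deviations of same-numbered arrays correlated at -0.078 to -0.040 over 15601 genes, and no array correlated best with its own number. Over all pairs of a 3 d and a 6 d array r was -0.083 to 0.106, too small to tell whether replicates were paired. With the replicate block 5 members and 7365 genes were called between stages, against 6 and 8405, and MEA and AGL80 were not called (adjusted p = 0.067 and 0.072) and SWN was (0.0239). The median log2 ratio of blank spots was 1.28, -1.18, -1.32 and 0.79 at 3 d, so dim probes such as FIS2 limit what can be read.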
